A study of Mus musculus with 68 samples.

Results

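The casein kinase genes of mouse dopamine neurons were examined as a family of 9 genes, selected by gene symbol from the 36172 genes of the deposited table. Csnk2a1, Csnk2a2 and Csnk2b encode casein kinase 2 (CK2), and Csnk1a1, Csnk1d, Csnk1e, Csnk1g1, Csnk1g2 and Csnk1g3 encode casein kinase 1 (CK1). In Patch-seq, the contents of a neuron are drawn into the recording pipette after a patch-clamp recording and sequenced, so that each library is 1 cell. The table held 68 neurons of the ventral tegmental area (VTA), 33 from 3xTg mice and 35 from WT mice, all 12 months old, and males and females were pooled. The 3xTg mice were homozygous for their humanized transgenes, which include APP Swe and Tau P301L. WT controls carried no transgene and came from their own breeding line, and both lines were of mixed C57BL/6, 129×1/SvJ and 129S1/Sv descent. Which mouse a cell came from is not in the labels, and each genotype was therefore treated as 1 sample. No test between genotypes was made, and every SD below describes the spread over cells.

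CK2 is a constitutively active serine/threonine kinase built from catalytic subunits, alpha (Csnk2a1) and alpha prime (Csnk2a2), and a regulatory beta subunit (Csnk2b) that holds the complex together and directs it to substrates. In neurons it binds small-conductance calcium-activated potassium (SK) channels and phosphorylates the calmodulin attached to them, which lowers the calcium sensitivity of the channel. CK1 kinases are unrelated to CK2 in spite of the shared name and act as single subunits. The alpha form belongs to the beta-catenin destruction complex, delta and epsilon phosphorylate the PER proteins of the circadian clock, and the gamma forms are tethered to membranes, where they phosphorylate Wnt co-receptors.

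Csnk2a1 has processed copies elsewhere in the mouse genome, and their sequences bear on what a read can be assigned to. The 60 coding bases from 25 to 84 of Csnk2a1, counted from 1 at the A of its start codon, are shown because they align without gaps in all 5 transcripts (GENCODE vM21, mm10). Capitals mark bases that differ from Csnk2a1. The stretches lie at chr2:152250535-152250594 (plus strand, 1 of 13 exons) for Csnk2a1, chr1:156524255-156524314 (plus strand, single exon) for Gm10031, chrX:16610276-16610335 (plus strand, single exon) for Csnk2a1-ps, chr14:14197328-14197387 (plus strand, single exon) for Csnk2a1-ps1 and chr8:95488361-95488420 (minus strand, 1 of 12 exons) for Csnk2a2.
Csnk2a1: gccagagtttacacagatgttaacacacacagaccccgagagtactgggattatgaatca
Gm10031: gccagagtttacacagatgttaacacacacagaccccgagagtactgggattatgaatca
Csnk2a1-ps: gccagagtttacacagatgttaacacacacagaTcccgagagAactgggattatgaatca
Csnk2a1-ps1: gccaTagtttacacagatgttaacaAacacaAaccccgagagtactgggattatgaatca
Csnk2a2: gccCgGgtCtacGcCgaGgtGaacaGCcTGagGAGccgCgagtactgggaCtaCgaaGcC

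Gm10031 matched Csnk2a1 at all 60 bases, Csnk2a1-ps differed at 2, Csnk2a1-ps1 at 3, and the functional paralog Csnk2a2 at 19. Over the whole coding sequence of 1176 bases, Gm10031 differed from Csnk2a1 at a single base, T117C. When the longest RefSeq-linked transcript was divided into windows of 90 bases every 10 bases, 258 of 412 windows of Csnk2a1 (62.6%) matched another gene at 90% identity or more, the identity that the authors' alignment asked for. For Csnk2a2, Csnk2b, Csnk1g1 and Csnk1g2 no window did. Csnk1g3 shared 56 of 416 windows (13.5%) with Gm14584. In the deposited table Gm10031, Csnk2a1-ps and Csnk2a1-ps1 (there Gm8471) had a count of 0 in all 68 cells. So had Gm11255, which matched 70 windows of Csnk2a1, and no reads had therefore been assigned to these genes. Counts of Csnk2a1 are uncertain to the extent that reads of these genes were counted with it or its own shared reads were left out. This was not tested, and it bears on the comparisons of Csnk2a1 with other members below. Of the cells with a count of Csnk2a1, 48.5% had a count that was not a whole number (tolerance 0.001), against 42.1% for Csnk2a2, 82.1% for Csnk2b and a median of 74.6% over expressed genes.

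Total counts ranged from 676556 to 1678624 per 3xTg cell (median 1194457) and from 492505 to 1327367 per WT cell (median 982390). The dopamine neuron markers Th, Slc6a3 and Slc18a2 had a count in all 68 cells, whereas Pitx3 was detected in 9 of the 33 3xTg neurons and 5 of the 35 WT neurons. Of Pvalb, Tmem119, P2ry12 and Aldh1l1, which the study used to leave out cells, at least 1 was detected in 5 neurons of each genotype, and Aldh1l1 was at 0 in all 68. Other glial and neuronal markers were present, namely Slc1a3 of astrocytes in 5 3xTg and 8 WT neurons (up to 1999 counts), C1qb of microglia in 10 and 13 (up to 2371), Cx3cr1 in 29 and 30 (up to 74), Mobp of oligodendrocytes in 32 and 34 (up to 237.0) and Gad2 of GABA neurons in all 68 (up to 113.5). The part of these in the results below was not tested beyond the cells without the study's 4 markers. Label numbers lay in runs of 1 genotype, and the median number of genes detected was 5233 in the first WT run (17 cells) and 7648 in the 3xTg run after it (21 cells), then 8441 in the next WT run (15 cells) and 9308 in the last 3xTg run (12 cells). The remaining 3 WT cells formed a run of their own. What the numbers mark is not stated. Fewer transcripts in a neuron and less RNA drawn from it cannot be told apart in such libraries.

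Csnk2a1 was the only member with a count in every cell. Counts divided by DESeq2 size factors are called normalized counts here. In 3xTg cells the normalized count of Csnk2a1 was 4.78 at the lowest, 63.5 at the median and 388.1 at the highest, and in WT cells it was 1.03, 33.4 and 339.6. The genotypes overlapped over most of this range, and the cells under a normalized count of 10 were mostly WT, 9 of 35 against 1 of 33. On the scale of log2(normalized count + 1), the mean was 6.0003 ± 1.21 (SD, 33 cells) in 3xTg and 4.75 ± 1.94 (SD, 35 cells) in WT, a difference of 1.25. The median expressed gene differed by 0.47 in the same direction, which leaves 0.77 for Csnk2a1 relative to it. When counts were instead summed over the cells of a genotype, Csnk2a1 had 2927 counts in 3xTg (79.7 CPM, counts per 1000000 counts of the genotype) and 1949 in WT (57.3 CPM). The log2 ratio was 0.48, with an exact 95% counting interval of 0.39 to 0.56. Intervals of summed counts cover counting error only, and reads are not independent molecules, since the cDNA went through 28 cycles of PCR.

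Csnk2a2, the other catalytic gene, was scarce. It had a count in 21 of 33 3xTg cells (63.6%, Clopper-Pearson 95% interval 45.1 to 79.6) and 17 of 35 WT cells (48.6%, 31.4 to 66.01). Such intervals of a share cover only the number of cells counted, treat the cells as independent, and hold nothing of the spread between mice. Its normalized count ran from 0 through a median of 0.734 to 78.7 in 3xTg and from 0 through a median of 0 to 48.9 in WT. Apart from 3xTg_48 and 3xTg_35, which lay above the highest WT cell, the genotypes overlapped, with a difference of 0.19 in mean log2 and a log2 ratio of summed CPM of 0.17 (−0.08 to 0.42). A single library carried much of each sum, 26.1% for 3xTg_48 and 32.9% for WT_65, and the log2 ratio was −0.21 without the former and 0.72 without the latter.

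Csnk2b, the regulatory subunit gene, was detected in 29 of the 33 3xTg neurons and 27 of the 35 WT neurons. Its normalized count was 0, 89.9 and 338.8 (lowest, median, highest) in 3xTg and 0, 69.5 and 631.7 in WT, so the highest cells were WT. The mean log2 value differed by 0.69, while the summed CPM was 107.3 in 3xTg and 107.2 in WT, with a log2 ratio of 0.00 (−0.06 to 0.07). Among cells with a count of Csnk2b the mean log2 difference was 0.02. The difference in the mean over all cells thus came with more cells lacking a count in WT, 8 against 4.

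**Figure D1:**
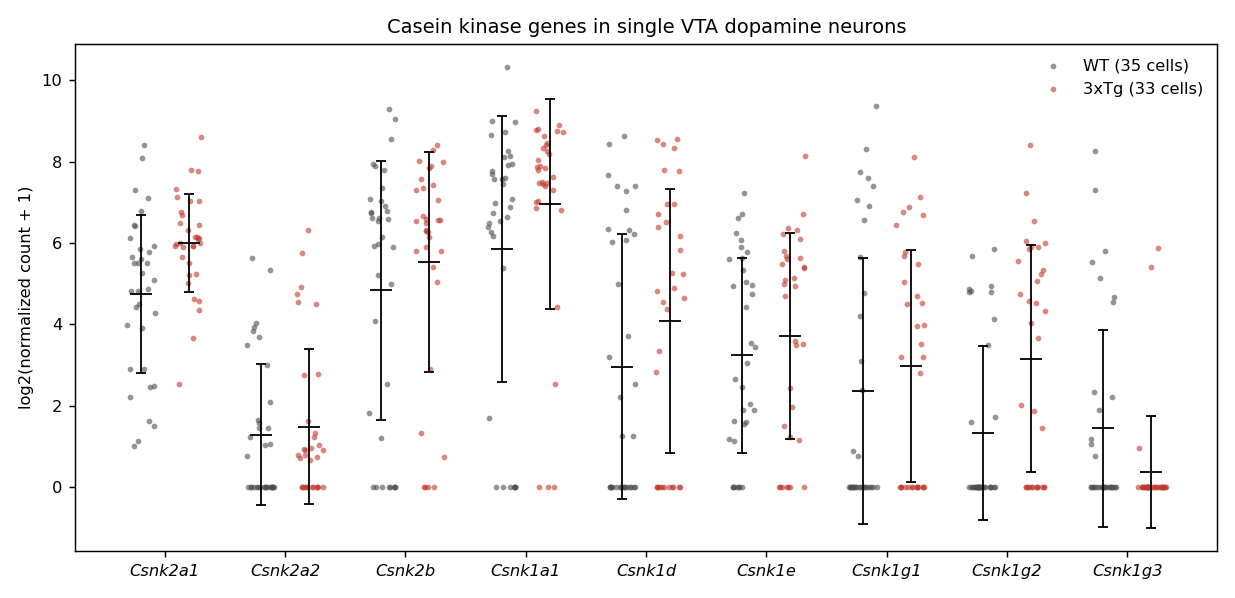
Each point is 1 cell, placed by log2(normalized count + 1) of the gene on the horizontal axis, with WT (35 cells) in grey and 3xTg (33 cells) in red. Black bars give the mean ± SD over cells. The genotypes overlap for all 9 genes, and only Csnk2a1 has no cell at 0.

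Among the CK1 genes, Csnk1a1 had the most counts. It was detected in 30 of 33 3xTg neurons and 28 of 35 WT neurons, with a normalized count of 0, 222.2 and 611.8 (lowest, median, highest) in 3xTg and 0, 125.1 and 1286 in WT. Mean log2 values differed by 1.10 and the log2 ratio of summed CPM was 0.19 (0.15 to 0.24), or 0.30 without WT_20. Csnk1d was detected in 22 and 19 cells, with medians of 27.3 in 3xTg and 1.39 in WT and highest values of 375.0 and 399.2. The difference was 1.13 in mean log2 and 0.31 (0.23 to 0.39) in summed CPM, where it was 0.15 without 3xTg_55 and 0.53 without WT_73. Csnk1e was detected in 26 and 28 cells and differed by 0.47 in mean log2, equal to the median expressed gene, and by 0.21 (0.10 to 0.32) in summed CPM. That ratio turned to −0.06 without 3xTg_50 and was 0.36 without WT_95. In each of these 3 genes the ranges of the genotypes overlapped.

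Of the gamma genes, Csnk1g2 was detected in 21 of 33 3xTg cells (63.6%, 45.1 to 79.6) and 11 of 35 WT cells (31.4%, 16.9 to 49.3). Its normalized count was 0, 15.5 and 337.1 (lowest, median, highest) in 3xTg and 0, 0 and 57.3 in WT, so the ranges overlapped but the WT cells did not reach the upper part. The difference was 1.83 in mean log2 and 1.68 (1.51 to 1.85) in summed CPM, from 1250 counts in 3xTg and 362 in WT. Its level had a Spearman correlation of 0.39 over the 68 cells with the number of genes detected, which had a median of 8511 in 3xTg and 7476 in WT, and the part of this in the difference was not tested. Without 3xTg_38, which held 25.0% of the 3xTg sum, the log2 ratio was 1.31. Csnk1g3 went the other way, with a count in 3 of 33 3xTg cells (9.09%, 1.92 to 24.3) and 13 of 35 WT cells (37.1%, 21.5 to 55.1), a highest normalized count of 57.7 against 304.6 and a median of 0 in both genotypes. Its difference was −1.08 in mean log2 and −2.88 (−3.20 to −2.58) in summed CPM, from 99 against 676 counts. WT_18 held 41.7% of the WT sum, and without it the log2 ratio was −2.15. 3xTg_42 held 52.5% of the 3xTg sum, and without that cell the ratio was −3.92.

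Csnk1g1 gave opposite signs by the 2 measures. It was detected in 19 of the 33 3xTg neurons and 15 of the 35 WT neurons, and its mean log2 value was 0.62 higher in 3xTg, while its summed CPM was lower (log2 ratio −0.72, −0.82 to −0.62). WT_5 held 25.5% of the WT counts, and the log2 ratio was −0.33 without it. No direction is given for this gene.

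**Figure D2:**
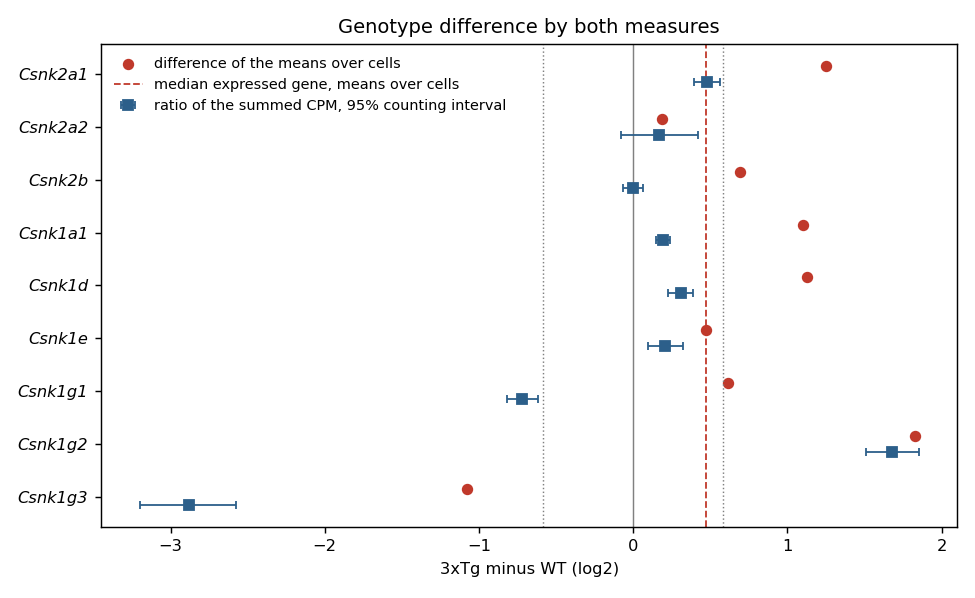
Circles give the difference of the mean of log2(normalized count + 1), 3xTg minus WT, and squares the log2 ratio of summed CPM with its exact 95% counting interval. Dotted lines mark a fold of 1.5 and the dashed line the median expressed gene (0.47). Csnk1g2 and Csnk1g3 lie past a dotted line by both measures in the same direction, and Csnk1g1 lies past them in opposite directions.

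A gene was counted as past the fold when both measures exceeded a fold of 1.5 in the same direction, and as expressed when 80% or more of the neurons of either genotype had a normalized count of 1 or higher. Of the 9 members, Csnk1g2 was past the fold upward and Csnk1g3 downward. Among all 17940 genes with a count, 10.4% were past the fold upward and 2.55% downward. Upward, 1 of 9 is near that background. Downward, 1 of 9 is above it, but a count of 1 gene is not a result about the members. Neither gene was among the 3988 expressed genes, of which 9.13% were past the fold upward and 3.49% downward. The 4 members that were expressed, Csnk2a1, Csnk2b, Csnk1a1 and Csnk1e, were not past the fold over all 68 cells. For Csnk2a1 the log2 ratio of summed CPM moved with single libraries. Without WT_94, which held 16.7% of the WT counts, it was 0.69, and Csnk2a1 was past the fold upward by both measures. Without 3xTg_24, which held 8.64% of the 3xTg counts, the ratio was 0.39. Csnk2a1 also stayed short of the fold in cells thinned to a common total count (0.41). The same held in cells without the markers that the study used to leave out cells (0.45). In the first pair of label runs, given below, it was past the fold. The median difference over the 9 members was 0.69 in mean log2, or 0.22 above the median expressed gene, and 0.19 in summed CPM, where the median expressed gene was at −0.03.

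Within the runs of label numbers, 3xTg minus WT was positive in both pairs of runs for Csnk2a1 (1.19 and 1.13 in mean log2) and Csnk1g2 (1.59 and 2.40) and negative in both for Csnk1g3 (−1.15 and −1.39). The log2 ratio of summed CPM of Csnk2a1 was 0.90 in the first pair and 0.20 in the second. Csnk2b was 0.51 and 1.46, and Csnk1a1 0.19 and 2.29 in mean log2. Csnk2a2 changed sign, from 0.48 to −0.16, and so did Csnk1g1, from −0.89 to 2.84. In summed CPM the sign also changed for Csnk1a1 (−0.19 and 0.67), Csnk1d (0.73 and −0.17) and Csnk1e (1.16 and −0.13). The members past the fold differed between the pairs. In the first they were Csnk2a1, Csnk1d, Csnk1e and Csnk1g2 upward and Csnk1g1 and Csnk1g3 downward, where 17.5% of all genes with a count in those cells were past it upward and 4.88% downward. In the second they were Csnk1a1, Csnk1g1 and Csnk1g2 upward and Csnk1g3 downward, against 14.1% and 9.8%. In the 28 3xTg and 30 WT cells without a count of Pvalb, Tmem119, P2ry12 or Aldh1l1, Csnk1g2 was still past the fold (1.80 in mean log2 and 1.61 in summed CPM), whereas Csnk1g3 fell just short in mean log2 (−0.58, with −2.33 in summed CPM).

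Levels of different genes were compared as summed CPM per kb of transcript, using the mean length of the RefSeq-linked transcripts. Over all 68 cells the order was Csnk2b (119.5 CPM per kb), Csnk1a1 (53.98), Csnk1d (21.4), Csnk2a1 (16.4), Csnk1e (12.1), Csnk1g2 (10.9), Csnk1g1 (6.89), Csnk1g3 (2.58) and Csnk2a2 (2.02). Csnk2b made up 48.6% of the per-length total of the family. No neighbours in this order differed by more than 1 SD over cells. The largest step, from Csnk1a1 to Csnk1d, was 2.22 ± 2.91 (SD, 68 cells) in log2(normalized count per kb + 1), and Csnk1a1 was the higher of them in 48 cells and the lower in 13. Csnk1d ranked above Csnk2a1 by summed counts but below it in 40 of 68 cells. The first 4 places were the same in both genotypes. Csnk1g2 stood above Csnk1e in 3xTg (16.3 CPM per kb) and below Csnk1g1 in WT (5.10).

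**Figure D3:**
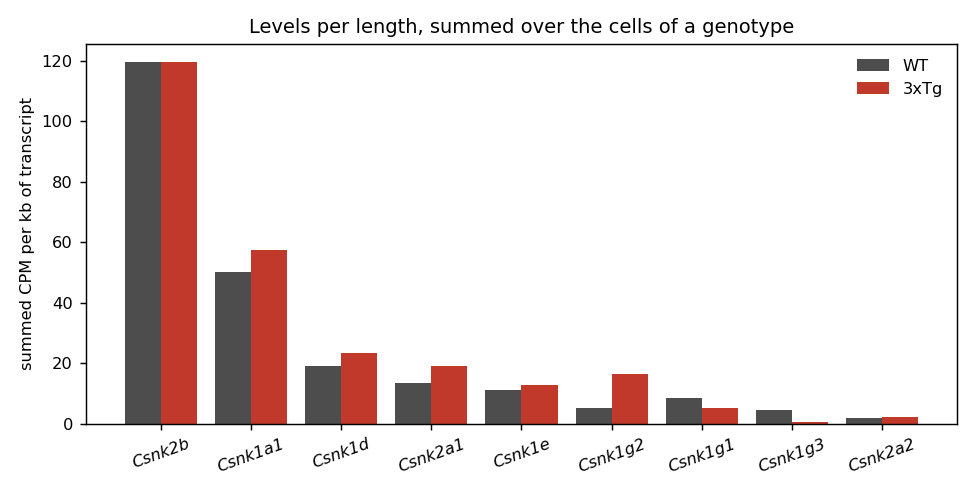
Bars give counts summed over the cells of a genotype as CPM per kb of transcript, WT in grey and 3xTg in red, with genes ordered by the level over all 68 cells. Csnk2b stands highest in both genotypes, and Csnk2a2 is lowest over all cells.

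The catalytic pair was dominated by Csnk2a1. Per kb, Csnk2a1 exceeded Csnk2a2 in 31 of the 33 3xTg neurons and 33 of the 35 WT neurons, and the 4 exceptions were 3xTg_48, 3xTg_79, WT_65 and WT_69. In summed counts Csnk2a1 held 90.8% of the pair in 3xTg (Clopper-Pearson 95% interval 89.8 to 91.8) and 88.9% in WT (87.5 to 90.2). The mean over cells of the log2 difference between the genes was 4.52 ± 2.20 (SD, 33 cells) in 3xTg and 3.46 ± 2.62 (SD, 35 cells) in WT. The genotype difference of this balance was 1.06, under the SD over cells, and 0.31 in summed counts, where leaving out WT_65 turned it to −0.25. Per length, both catalytic genes together reached 0.176 of the level of Csnk2b in 3xTg and 0.130 in WT in summed counts. Cell by cell the catalytic genes were also the smaller part, but with little difference between genotypes. Their median share in the per-length total of the 3 CK2 genes, another measure than the ratio to Csnk2b, was 15.9% in 3xTg and 17.4% in WT. The balance in mean log2 differed by 0.03.

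Csnk1d and Csnk1e, the closest pair of CK1 isoforms, were nearer to each other. Csnk1d held 68.9% of their summed counts in 3xTg (67.5 to 70.3) and 67.5% in WT (65.9 to 69.01). Per kb, Csnk1d was the higher in 16 3xTg cells and Csnk1e in 12, against 12 and 18 in WT, and neither had a count in 5 cells of each genotype. The balance differed by 0.65 in mean log2, within an SD over cells of 3.64 in 3xTg and 3.501 in WT. CK2 and CK1 were also compared as wholes. The 3 CK2 genes held 31.1% of the summed counts of the family in 3xTg (30.5 to 31.7) and 30.1% in WT (29.4 to 30.7). Per length, their share was 54.8% in 3xTg and 57.7% in WT, so the order of the genotypes was reversed. The mean log2 over CK2 genes minus that over CK1 genes was 0.79 ± 1.21 (SD, 33 cells) in 3xTg and 0.76 ± 1.79 (SD, 35 cells) in WT, so the balance differed by 0.03.

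All 3 CK2 genes were detected together in 21 of 33 3xTg and 14 of 35 WT cells. Csnk2a1 and Csnk2b without Csnk2a2 were found in 8 3xTg and 13 WT cells, and Csnk2a1 without the other CK2 genes in 4 and 5. In 3xTg, the cells with all 3 had a median of 9312 genes detected, against 7087 for those lacking Csnk2a2 and 4486 for those with Csnk2a1 alone. In WT these medians were 8457, 5198 and 5154. Detection of Csnk2a2 thus moved with the number of genes detected per cell (Spearman correlation of its level with that number 0.63 over 68 cells), against 0.02 for Csnk2a1 and 0.04 for Csnk2b. Among the CK1 genes this correlation was 0.46 for Csnk1d, 0.46 for Csnk1e, 0.42 for Csnk1g1, 0.39 for Csnk1g2, 0.16 for Csnk1a1 and −0.07 for Csnk1g3. With the total count per cell, Csnk2a2 was instead the lowest of the 3 CK2 genes, at 0.06 against 0.41 for Csnk2a1 and 0.41 for Csnk2b. Among the CK1 genes that correlation was 0.42 for Csnk1a1, 0.34 for Csnk1d and 0.22 for Csnk1g2. It was 0.07 for Csnk1g1, −0.04 for Csnk1e and −0.19 for Csnk1g3.

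Over the 68 cells, the log2 levels of the CK2 genes were weakly related. The Spearman correlation was 0.19 for Csnk2a1 with Csnk2b (Pearson 0.17), −0.03 for Csnk2a1 with Csnk2a2 (Pearson 0.03) and 0.15 for Csnk2a2 with Csnk2b (Pearson 0.28). These are descriptions over cells that share depth, capture and amplification, and they are set against the correlation of Csnk2a1 with all other expressed genes, which had a median of 0.12 and a 5th to 95th percentile range of −0.35 to 0.44. All 3 values lay inside the corresponding range of either gene. After the number of genes detected and the genotype had been removed by a linear fit, they were 0.22, 0.01 and 0.12. The highest correlation between any 2 members was 0.38, for Csnk2a1 with Csnk1a1 (0.36 after the same fit), and it was 0.37 within 3xTg and 0.33 within WT. The median was 0.15 over the 18 pairs of a CK2 with a CK1 gene and 0.14 over the 15 pairs of CK1 genes, and 0.04 and 0.02 after the fit.

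**Figure D4:**
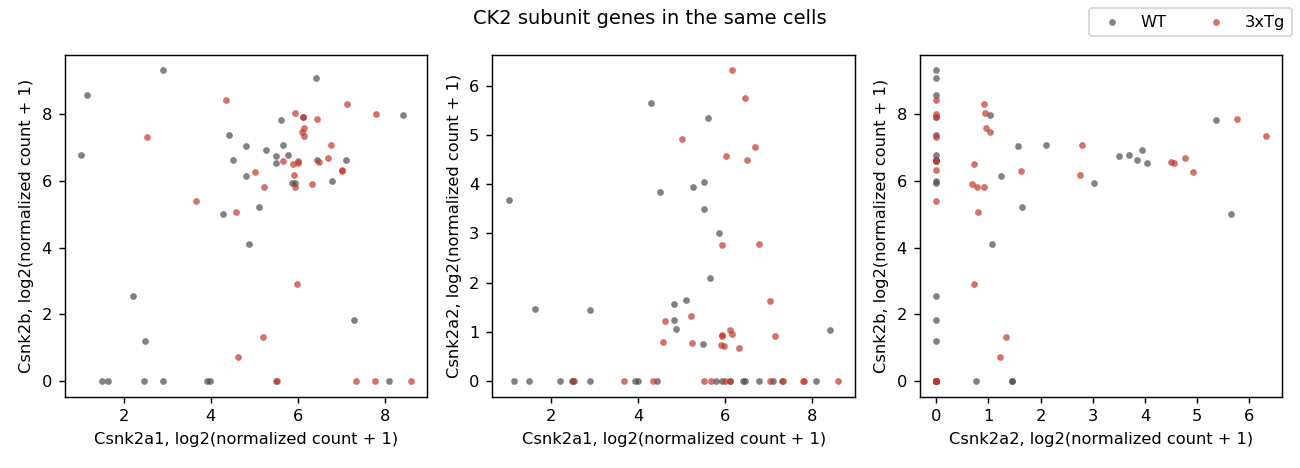
Each point is 1 cell, with log2(normalized count + 1) of a CK2 gene on each axis, WT in grey and 3xTg in red. The panels show Csnk2a1 with Csnk2b (Spearman 0.19), Csnk2a1 with Csnk2a2 (−0.03) and Csnk2a2 with Csnk2b (0.15), and cells at 0 line the axes.

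**Figure D5:**
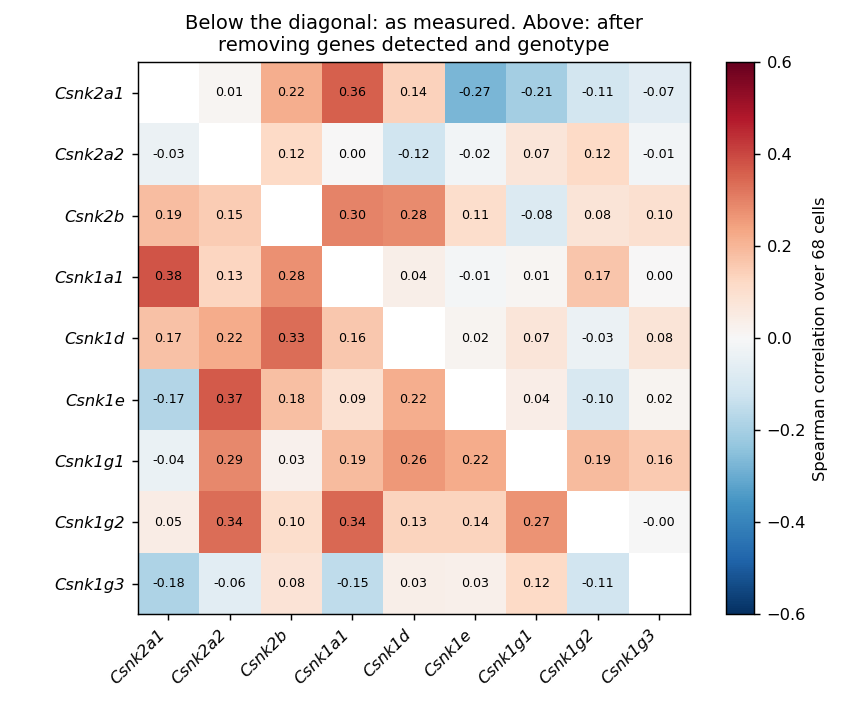
Spearman correlations over 68 cells between all members, as measured below the diagonal and after removing genes detected and genotype above it. The highest value is that of Csnk2a1 with Csnk1a1 (0.38 as measured).

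The expressed genes whose levels were most like those of Csnk2a1 over the 68 cells were Hnrnpa1 (Spearman 0.67), Ywhaz (0.62) and Romo1 (0.61). Hnrnpa1 encodes an RNA-binding protein, Ywhaz a 14-3-3 adaptor protein and Romo1 a small mitochondrial membrane protein. After the fit on genes detected and genotype they stood at 0.65, 0.55 and 0.58. These genes also share windows with other genes, 54.6% of windows for Hnrnpa1, 20.6% for Ywhaz and 33.3% for Romo1. For Csnk2a2 the most similar were Rasal2 (0.59), Pcdhb5 (0.58) and Mcc (0.56), which fell to 0.35, 0.08 and 0.18 after the fit. For Csnk2b they were Sae1 (0.63), a subunit of the SUMO-activating enzyme, Tm9sf2 (0.59) and Schip1 (0.58), at 0.60, 0.60 and 0.55 after the fit. Schip1 shared 90.6% and Pcdhb5 38.8% of windows with other genes. The part of shared windows in these correlations was not tested.

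Known substrates and partners were read from lists, whose counts past the fold stand beside the 10.4% upward and 2.55% downward of all genes with a count. Of 14 CK2 substrates, all with a count, none was past the fold upward and 1 downward, and the 9 that were expressed had a median difference of 0.79 in mean log2, against 0.47 for the median expressed gene. Nucks1, a nuclear protein phosphorylated by CK2, differed by 1.29 in mean log2 and 0.45 in summed CPM. The calmodulin genes Calm2 and Calm3 differed by 0.63 and 1.13 in mean log2 and by 0.35 and 0.20 in summed CPM. The gene past the fold was Nfkbia, the inhibitor of NF-kappaB, at −1.87 and −3.32, and WT_7 held 43.8% of its counts. In the list of the SK channel complex, 8 of 9 genes had a count, with Ppp2r1a, the scaffold subunit of protein phosphatase 2A, past the fold upward (1.31 and 0.60) and the SK2 channel gene Kcnn2 downward (−0.63 and −0.79, with a count in 11 3xTg and 13 WT cells).

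Of 9 clock genes linked to CK1, 2 were past the fold upward and 1 downward, beside the same background of 10.4% and 2.55%. Per3, a PER protein gene, was lower in 3xTg by both measures (−0.59 in mean log2 and −1.36 in summed CPM). Cry1 (1.05 and 0.63) and Btrc (1.51 and 0.65), the latter encoding an F-box protein that recognizes phosphorylated PER and beta-catenin, were higher. In the Wnt list, 11 of 12 genes had a count and Dvl3, a Dishevelled gene, was past the fold downward (−0.77 and −0.99). Of the CK1 anchors, 6 of 8 had a count and Fam83a was past it downward (−0.60 and −0.86). Ttbk2, a tau tubulin kinase, was the only 1 of 5 CK1 superfamily relatives past the fold (0.97 and 0.81). Of 14 other serine/threonine kinases, Akt1 (1.33 and 1.55) and Prkca (1.33 and 0.75) were past it upward and none downward. With lists this short, counts of 1 or 2 are not results about a list.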

How the data were processed

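RNA of single VTA dopamine neurons was sequenced by the authors in 33 3xTg and 35 WT cells. The deposited estimated counts were made by the authors in Strand NGS 4.0 by trimming, alignment to RefSeq transcripts of mm10 (minimum identity 90%) and removal of duplicate reads. The libraries were directional, and the use of strand in counting is not given in the sources used here. The log2 values deposited beside them had been scaled by DESeq2, per the authors' methods, and served as an alternative.

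From the counts, size factors were computed as in DESeq2 over 787 genes with a count in every cell. Sums over cells, TMM factors and thinning used rounded counts. A pseudocount of 1 was added on the log2 scale, which understates the change of low genes. The members, gene lists and naming rule were chosen with earlier results of these data known. All 9 members were named, with the 3 expressed genes most correlated with each CK2 gene, every list gene past the fold (up to 6 a list), Nucks1, Calm2 and Calm3. Some genes of the lists are not reported here and are left out of the lists' values. No cells were clustered and doublets were not called. No 2 libraries held identical values. Calculations were tested on simulated data. Tools were edgeR 4.0.16 (R 4.3.3) for TMM factors, scipy 1.17.1, pandas 2.3.3 and numpy 2.4.6 under Python 3.11.15, and matplotlib 3.10.9.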

Additional observations from a re-analysis of the deposited data

How the results depend on the processing

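Alternatives were CPM, TMM factors, the authors' log2 values, pseudocounts of 0.1 and 10, cells thinned to 700471 counts, cells without markers of other types, each pair of label runs, summed counts, cells with a count of the gene, a median over all genes with a count, and leaving out each cell. Relative to the median gene, Csnk2a1 (0.50 to 1.12) and Csnk1g2 (0.54 to 2.29) were higher in 3xTg in all 14 alternative values. Csnk1g3 (−1.55 over all cells) was below the median gene in all 14, but by only −0.002 among cells with a count of it, 3 in 3xTg and 13 in WT, where its plain difference was 0.18 and that of the median gene 0.18. Csnk2b (−0.16 to 0.85), Csnk1g1 (−1.27 to 2.24), Csnk2a2 (−0.77 to 0.20), Csnk1a1 (−0.20 to 1.68), Csnk1d (−0.05 to 1.08) and Csnk1e (−0.17 to 0.63) changed sign. The balance of Csnk2a1 to Csnk2a2 ranged from 0.31 to 1.31, that of Csnk1d to Csnk1e from −0.04 to 1.09 and that of CK2 to CK1 from −0.40 to 0.35. These ranges did not include leaving out cells from summed counts. There, the balance of Csnk2a1 to Csnk2a2 changed sign, from −0.25 without WT_65 to 0.71 without 3xTg_48. The correlation of Csnk2a1 with Csnk2b ranged from 0.02 to 0.38, and those of Csnk2a2 with Csnk2b (−0.06 to 0.30) and Csnk2a1 with Csnk2a2 (−0.14 to 0.12) changed sign. No paired analysis was possible because the labels give nothing that pairs 3xTg cells with WT cells. With cells as the unit and no mouse named, differences between animals cannot be told apart from differences between genotypes.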
